A study of Caenorhabditis elegans with 15 samples.

Results

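Transcripts of worms that lack FBF-1 as well as 3 long intervening non-coding RNAs were compared with those of worms that lack the 3 RNAs alone. The comparison uses 6 of the 15 mRNA sequencing libraries of the series, 3 of the strain fbf-1 3xlnc and 3 of the strain 3xlnc, chosen by their genotype labels and not by any measured value. Both strains were mutant in linc-4, linc-7 and linc-29, while fbf-1 3xlnc carried an fbf-1 mutation in addition. All libraries were made from untreated whole adult Caenorhabditis elegans grown on solid media, so each value averages germline and body. The sources used here do not give the alleles, the age of the adults or the number of worms per library. They also do not say whether the 3 libraries per group are separate cultures, so the p-values rest on a spread that may be technical only. The fbf-1 3xlnc libraries are labelled polyA RNA and the 3xlnc libraries total RNA, and they were deposited at different times, although the labels name the same TRIzol extraction and the same KAPA mRNA library kit for both. Genotype, RNA label and deposit split the 6 libraries in the same way and cannot be told apart in this comparison. A further 3 fbf-1 libraries (polyA RNA) and 3 libraries of WT, the N2 wild type (total RNA), were used to set the effect of fbf-1 in worms with intact linc genes beside it. That second comparison shares no library with the first but has the same split of RNA labels and of deposits. The remaining 3 libraries, of an fbf-2 mutant, are in neither comparison. They are cited only for some levels and in a fit of all 15 libraries. The difference between the 2 log2 fold changes was tested in 1 model over the 12 libraries, where a shift that is equal on the log scale in both backgrounds cancels.

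FBF-1 and its close relative FBF-2 are PUF (Pumilio and FBF) proteins, which bind short elements in the untranslated ends of mRNAs and, with the deadenylase machinery and other partners, repress them. In the hermaphrodite germline they act with Notch signalling from the distal tip cell to keep stem cells dividing. They also hold down mRNAs for meiotic entry and for sperm fate, such as gld-1, fem-3 and fog-1, so that a germline that first makes sperm turns to making oocytes.

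Total counts per library were 28476560 to 30152040 in fbf-1 3xlnc and 17321508 to 25666906 in 3xlnc, against 21731471 to 38453738 in fbf-1 and 9068700 to 20659808 in WT. Ribosomal RNA genes took 2.02 to 4.13% of the counts in fbf-1 3xlnc and 0.373 to 2.51% in 3xlnc. A library of fbf-1 3xlnc, called library 1 after its column, stood apart from its 2 sister libraries: of 10726 genes with a mean of 50 counts, 300 were over 2-fold above both sisters, where every other library except WT library 1 (104 of 9479) had at most 7 such genes. Among the 14429 genes tested, 445 were high in library 1 in this way, among them 62 of 130 collagen genes, 22 of 29 major sperm protein genes and 268 of 2781 genes that the authors' deposited table flags as germline-enriched, but 0 of 1847 that it flags as bound by FBF-2. Results that rest on this library are given with and without it. WT library 1 was the shallowest of the 12, with ribosomal RNA at 4.62% of counts, and the counts of fbf-1 over WT given for gene lists are repeated without it where they moved. The whole-worm label fitted the markers: all 28 oocyte, 25 muscle, 19 intestine, 16 somatic gonad and 15 epidermis markers and 22 of 23 neuron markers passed the filter on low counts.

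The targeted genes followed the labels. In counts per 1000000 counts of the library (CPM), fbf-1 (chromosome II, 6078263 to 6080843, minus strand, WBcel235) had 8.25, 8.57 and 8.42 CPM in fbf-1 3xlnc, against 37.4, 39.3 and 40.5 CPM in 3xlnc. The fbf-1 3xlnc libraries all lay far below the 3xlnc libraries, at log2 -2.14 (SE 0.0735, adjusted p = 6.63e-07 by the quasi-likelihood test of edgeR). The fall was as large in fbf-1 over WT (log2 -2.19, adjusted p = 3.92e-05), and the 2 falls differed by 0.08 (SE 0.136, adjusted p = 0.795). Its neighbour and near-copy fbf-2 (6088863 to 6091480) had 32.8, 30.8 and 34 CPM in fbf-1 3xlnc and 34, 30.8 and 34.2 CPM in 3xlnc, groups that overlapped (log2 0.06, SE 0.0723, adjusted p = 0.574). The 2 genes resemble each other enough to share reads, so the counts left on fbf-1 may belong to either. The genes linc-4, linc-7 and linc-29 had 0 counts in all 6 libraries of fbf-1 3xlnc and 3xlnc. Of 31 genes tested within 100000 bp of fbf-1, 6 rose and 2 fell, with a median log2 fold change of 0.06. Among them was ptc-2, a patched-related gene annotated as a pseudogene, which lies between the fbf genes (6083473 to 6085924). It was at 1.24 on the log2 scale (adjusted p = 0.0161) from low levels of 0.962 to 1.54 CPM in fbf-1 3xlnc and 0.468 to 0.693 CPM in 3xlnc.

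**Figure D1:**
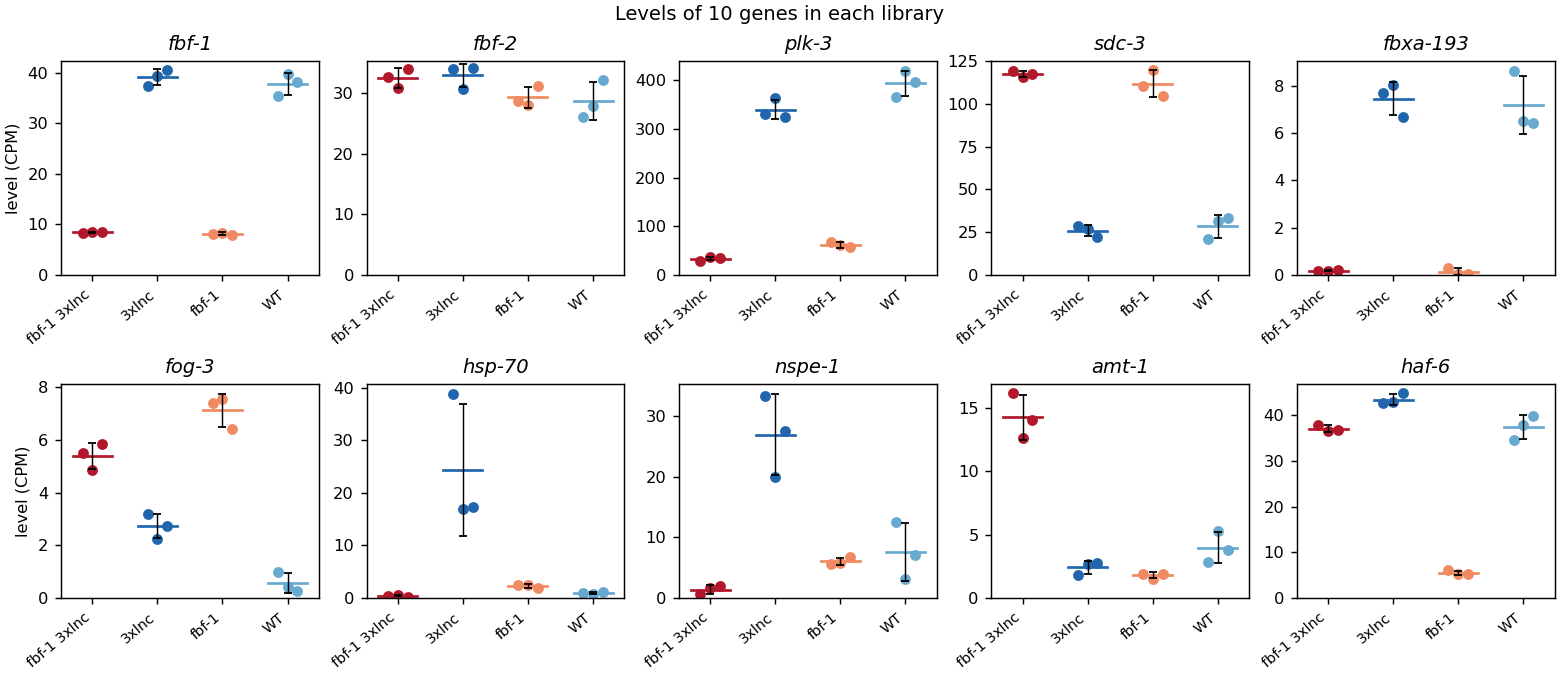
Levels of 10 genes in CPM (vertical axes, linear and starting at 0) in each of the 3 libraries of fbf-1 3xlnc, 3xlnc, fbf-1 and WT, with points for libraries, coloured lines for means and black bars for 1 SD. The panels of fbf-1, plk-3, sdc-3 and fbxa-193 show the fbf-1 strains on 1 side of both of their controls, hsp-70 and nspe-1 are high in 3xlnc, amt-1 is high in fbf-1 3xlnc, and haf-6 is low in fbf-1.

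Across the transcriptome, 2508 genes rose and 2142 fell in fbf-1 3xlnc relative to 3xlnc at an adjusted p under 0.05, which is 17.4% and 14.8% of the 14429 genes tested (32.2% in all). With upper-quartile scaling the split turned to 1898 higher and 2556 lower, so the balance between rises and falls depends on the scaling, while the median gene moved by no more than -0.08 on the log2 scale under either. Most changes were small. Only 169 genes rose by more than 2-fold and 633 fell by more than 2-fold, 1.17% and 4.39% of those tested. In fbf-1 over WT, 284 genes rose and 361 fell (2.12% and 2.69% of 13424, 4.8% in all), and without WT library 1 these became 1006 and 1211. Of them 130 rose and 163 fell by more than 2-fold (0.968% and 1.21%). The difference between the 2 backgrounds passed the test for 916 of 14772 genes, 375 of them higher and 541 lower in the linc-mutant background (6.2% in all, 2.54% and 3.66% by direction), and without WT library 1 1570 were higher and 1193 lower. It was over 2-fold for 143 higher and 349 lower genes (0.968% and 2.36%).

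A set of genes moved the same way in both comparisons, in which RNA label and deposit also follow the fbf-1 genotype. Of 13348 genes tested in both comparisons, 104 rose in both, 4.16% of the genes that rose in fbf-1 3xlnc over 3xlnc and 38.7% of those that rose in fbf-1 over WT. In the other direction 197 fell in both, 9.84% and 54.9% of the 2 lists, while 14 and 43 genes went opposite ways. These counts follow the libraries of the second comparison: without WT library 1, 353 genes rose and 500 fell in both and 129 and 129 went opposite ways, and without fbf-1 library 3, 39 rose and 52 fell in both. The 2 sets of log2 fold changes correlated across these genes with Pearson's r = 0.215 and Spearman's rho = 0.295. These values describe genes, which are not independent replicates, in libraries that share the split of RNA label and deposit. Of the genes changed in both in 1 direction, 12 rose and 38 fell by over 2-fold in both with groups that did not overlap and a mean of 50 counts (of all genes tested, 44.8% and 26.2% had no overlap in the first and the second comparison). The genes named next as changed in both backgrounds were chosen after their values were seen.

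Genes at the top of the pathway for sex determination and dosage compensation stood among them. The gene sdc-3 (chromosome V, 15039148 to 15048207), whose product recruits the dosage compensation complex to the X chromosomes of hermaphrodites, had 120, 116 and 118 CPM in fbf-1 3xlnc and 28.4, 27.1 and 22.2 CPM in 3xlnc. It had 111, 120 and 104 CPM in fbf-1 and 20.8, 31.5 and 33.2 CPM in WT. Both fbf-1 strains thus lay well above their controls, and the log2 fold changes of 2.27 (SE 0.0903, adjusted p = 1.2e-06) and 1.97 (adjusted p = 0.000754) differed by 0.32 (SE 0.209, adjusted p = 0.412). The gene xol-1, the early switch to male development that represses the sdc genes, had low levels and rose by 1.63 (3.50, 4.99 and 3.42 CPM in fbf-1 3xlnc against 1.27, 1.27 and 1.52 CPM in 3xlnc, adjusted p = 0.000957) and by 1.33 in fbf-1 over WT (adjusted p = 0.0118). T10D4.6 (log2 1.77 and 1.40), F57H12.6 (2.01 and 2.21), sysm-1 (2.15 and 1.42) and the collagen gene col-95 (1.82 and 1.68) rose in both backgrounds as well, given as fbf-1 3xlnc over 3xlnc and then as fbf-1 over WT.

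A deep fall in both backgrounds was that of plk-3, a gene of the polo-like kinase family (chromosome IV, 7470860 to 7473209). It had 29.2, 35.9 and 35.1 CPM in fbf-1 3xlnc and 332, 363 and 325 CPM in 3xlnc, and 68.2, 60.9 and 56.5 CPM in fbf-1 and 366, 419 and 396 CPM in WT. No library of either fbf-1 strain came near its control, at log2 fold changes of -3.27 (SE 0.088, adjusted p = 9.98e-08) and -2.64 (adjusted p = 2.01e-05). The fall was larger in the linc-mutant background by 0.60 on the log2 scale (difference -0.60, SE 0.161, adjusted p = 0.0402).

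A run of 5 neighbouring F-box genes on chromosome V, fbxa-191, fbxa-192, fbxa-193, fbxa-129 and fbxa-108 (17637982 to 17659385, all on the minus strand), fell together in both backgrounds. F-box proteins of this family are thought to hand targets to ubiquitin ligases, and fbxa-191, fbxa-193 and fbxa-129 are annotated as pseudogenes. The gene fbxa-192 had 0.28, 0.141 and 0.232 CPM in fbf-1 3xlnc and 20.8, 24.7 and 23.9 CPM in 3xlnc, and 0.421, 0.506 and 0.52 CPM in fbf-1 and 7.39, 7.89 and 9.04 CPM in WT. Every library of the fbf-1 strains was near 0, and the 3xlnc libraries lay above the WT libraries. The log2 fold changes were -6.62 (adjusted p = 9.98e-08) and -4.02 (adjusted p = 2.79e-05), with a difference of -2.58 (adjusted p = 0.00025). The log2 fold changes of the other 4 genes, fbxa-191, fbxa-193, fbxa-129 and fbxa-108, were -4.40, -5.23, -2.56 and -2.23 in fbf-1 3xlnc over 3xlnc and -2.74, -5.68, -2.36 and -1.07 in fbf-1 over WT. The nearest tested genes on either side were not lower: ztf-25 was at log2 0.23 (adjusted p = 0.121) and dgat-2 at 0.41 (adjusted p = 0.0324). Members of this family resemble each other, so reads may have been divided among them.

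Collagen genes also held shared falls. The genes col-81, col-129 and col-139 fell in both backgrounds by similar amounts (log2 -2.52, -2.38 and -2.44 in fbf-1 3xlnc over 3xlnc, and -2.48, -2.38 and -2.34 in fbf-1 over WT). In fbf-1 3xlnc, col-81 had 449, 177 and 182 CPM, against 1705, 1419 and 1724 CPM in 3xlnc, and in fbf-1 it had 116, 110 and 69.1 CPM, against 446, 702 and 522 CPM in WT. Library 1 was the highest of the fbf-1 3xlnc libraries but still below every 3xlnc library.

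**Figure D2:**
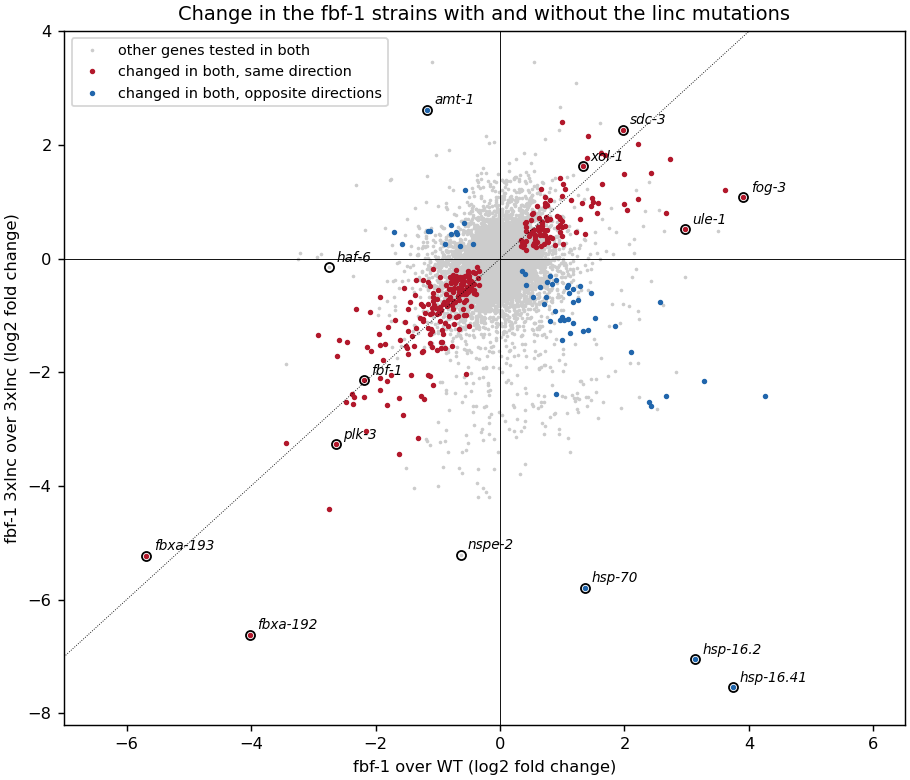
Log2 fold change of each gene tested in both comparisons, fbf-1 over WT on the horizontal axis and fbf-1 3xlnc over 3xlnc on the vertical axis, with genes changed in both in red (same direction, 104 higher and 197 lower) or blue (opposite directions, 14 and 43) and a dotted line where the 2 are equal. The genes fbf-1, sdc-3, plk-3 and fbxa-193 lie near the line, hsp-70, hsp-16.2 and hsp-16.41 lie at the lower right, and amt-1 at the upper left.

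Among the mRNAs reported as bound or regulated by FBF, 8 of 17 rose, 1 fell (fbf-1 itself) and 8 did not pass the test. Over all genes tested 17.4% rose and 14.8% fell, the shares against which this and the later list counts stand. The median log2 fold change of the list was 0.12 beside -0.02 over all genes. The sperm-fate genes of this list rose. The gene fog-3, a Tob-family protein needed for germ cells to become sperm, had 5.49, 4.88 and 5.84 CPM in fbf-1 3xlnc and 3.17, 2.26 and 2.73 CPM in 3xlnc, against 7.42, 7.55 and 6.42 CPM in fbf-1 and 0.992, 0.436 and 0.251 CPM in WT. Both fbf-1 strains were above their controls without overlap (log2 1.08, SE 0.169, adjusted p = 0.00185, and log2 3.91, adjusted p = 0.000326). The rise was smaller in the linc-mutant background, where 3xlnc itself stood above WT (difference -2.81, SE 0.358, adjusted p = 0.000355).

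The gene fem-3, which promotes male fate, had 52.1, 60.0 and 57.4 CPM in fbf-1 3xlnc and 39.4, 46.4 and 46.9 CPM in 3xlnc (log2 0.43, adjusted p = 0.00257). The gene fog-1, a cytoplasmic polyadenylation element binding protein of sperm fate, rose by 0.46 (adjusted p = 0.00446). Neither gene overlapped between the groups, which was so for 44.8% of all genes tested. For fem-3 and fog-1 in fbf-1 over WT the values were 0.33 and 0.48 (adjusted p = 0.0685 and 0.059). Genes of meiotic entry rose less or did not pass. The poly(A) polymerase gene gld-2 (log2 0.36, adjusted p = 0.00226) and its partner gld-3 (0.34, adjusted p = 0.00462) rose, with differences to fbf-1 over WT of 0.41 and 0.28 that did not pass (adjusted p = 0.291 and 0.297). The translational repressor gld-1 had 1039, 1013 and 1036 CPM in fbf-1 3xlnc and 936, 1075 and 979 CPM in 3xlnc, overlapping groups (log2 0.12, adjusted p = 0.134). Further rises were those of the cyclin gene cyb-2.1 (log2 0.32), the MAP kinase gene mpk-1 (0.32) and the axis gene him-3 (0.16, adjusted p = 0.0318, lost when any library but fbf-1 3xlnc library 1 was left out). The MAP kinase phosphatase gene lip-1 (0.08), cki-2 (0.10), htp-1 (0.11), htp-2 (0.05), syp-2 (0.07) and syp-3 (0.06) did not pass.

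Of 11 PUF genes tested, 7 rose and 1 fell, fbf-1, at a median of 0.23, beside 17.4% higher and 14.8% lower over all genes. The oocyte PUF genes led: puf-6 had 138, 148 and 151 CPM in fbf-1 3xlnc and 107, 115 and 116 CPM in 3xlnc (log2 0.45, SE 0.0514, adjusted p = 0.000505), and puf-7 rose by 0.46 (adjusted p = 0.000673). Among 21 RNA regulators that act with FBF or the GLD proteins, 13 rose and 0 fell at a median of 0.23, led by the cytoplasmic polyadenylation element binding gene cpb-1 (0.47, adjusted p = 0.000273), the poly(A) polymerase gene gld-4 (0.46) and cpb-3 (0.37). With upper-quartile scaling, 8 of these 21 and 5 of the 11 PUF genes rose. Leaving out a library lowered the 13 to 8 without fbf-1 3xlnc library 2 or 3xlnc library 3 and to 7 without fbf-1 3xlnc library 3, which also lowered the PUF rises to 4, and 5 regulators rose with all 15 libraries in 1 fit. Of the 21 regulators 0 passed in either direction in fbf-1 over WT with edgeR, also at an unadjusted p under 0.05, or with DESeq2, and without WT library 1 0 rose and 7 fell. The difference between the backgrounds passed as higher for 1 of the 21, and for 15 without WT library 1.

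In the Notch pathway that maintains germline stem cells, 7 of 11 genes rose and 0 fell, at a median of 0.26 (all genes: 17.4% higher, 14.8% lower). The receptor gene glp-1 had 292, 301 and 310 CPM in fbf-1 3xlnc and 248, 277 and 232 CPM in 3xlnc (log2 0.33, adjusted p = 0.00604), and the DNA-binding effector gene lag-1 rose by 0.34 (adjusted p = 0.00175). The groups did not overlap for either gene, nor did they for 44.8% of all genes tested. The ligand gene apx-1 rose by 0.30, the somatic receptor gene lin-12 by 0.58 and ego-1, an RNA-directed RNA polymerase of the germline, by 0.26. Of the 2 direct Notch targets of the stem cell niche, lst-1 was at 0.24 (adjusted p = 0.0108, and 0.0974 without fbf-1 3xlnc library 3) and sygl-1 did not pass (log2 0.03, adjusted p = 0.754). The ligand gene lag-2 was measured at 0.925 and 0.825 CPM in fbf-1 3xlnc and 3xlnc and did not pass. Without fbf-1 3xlnc library 3 the count of rises in this list dropped to 3. Of the 11 genes 0 passed in fbf-1 over WT in either direction with edgeR, also at an unadjusted p under 0.05, or with DESeq2, and 0 of the 11 differences passed with edgeR (4 at an unadjusted p under 0.05, and 1 with DESeq2). Without WT library 1, 1 gene fell in fbf-1 over WT and 5 differences passed as higher.

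Genes of the dividing germline rose in larger number. Of 29 cell cycle and DNA replication genes, 24 rose and 0 fell, at a median of 0.29 (all genes: 17.4% higher, 14.8% lower). The helicase gene mcm-3 had 353, 380 and 391 CPM in fbf-1 3xlnc and 285, 295 and 290 CPM in 3xlnc (log2 0.45, SE 0.0556, adjusted p = 0.00069), mcm-6 rose by 0.44, and cye-1, cyclin E, by 0.38 (adjusted p = 0.00106). None of the 3 overlapped between groups, which was so for 44.8% of all genes tested. Summed over the list, the level was 5971 to 6642 CPM in fbf-1 3xlnc and 5286 to 5551 CPM in 3xlnc, while fbf-1 (6276 to 6594 CPM) and WT (6228 to 6565 CPM) overlapped. The count is sensitive to the libraries: it was 15, 14 and 15 without fbf-1 3xlnc library 2, fbf-1 3xlnc library 3 and 3xlnc library 3. For fbf-1 over WT 0 rose and 0 fell with edgeR (at an unadjusted p under 0.05, 0 and 3, and with DESeq2 0 and 1), and the difference between the backgrounds passed for 1 of the 29 genes with edgeR and 7 with DESeq2. Without WT library 1, 3 genes fell in fbf-1 over WT and 20 differences passed as higher; without fbf-1 3xlnc library 1, 7 did.

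Meiotic genes changed less. Of 14 genes of the chromosome axis and synaptonemal complex, 3 rose and 0 fell, among them htp-3, an axis protein (log2 0.28, adjusted p = 0.00354), at a median of 0.10. This share is near that of all genes (17.4% higher), and only 1 passed without fbf-1 3xlnc library 2, fbf-1 3xlnc library 3 or 3xlnc library 2. Of 24 genes of break formation, pairing and crossovers, 11 rose and 0 fell at a median of 0.18. They included him-17, a chromatin factor for break formation, with 160, 170 and 168 CPM in fbf-1 3xlnc and 134, 146 and 133 CPM in 3xlnc (log2 0.35, adjusted p = 0.0018), and the repair genes rad-50 (0.34) and rad-54.L (0.35). Counts were 16 without fbf-1 3xlnc library 1, 7 without library 2 and 5 without library 3. With intact linc genes, in fbf-1 over WT, 0 genes of either list passed with edgeR or DESeq2, and at an unadjusted p under 0.05 the axis list had 1 higher and 0 lower and the break list 1 higher and 1 lower. Without WT library 1, 2 axis genes fell and 2 break genes rose there.

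Of 19 sex determination genes, 13 rose and 0 fell, at a median of 0.31 (all genes: 17.4% higher, 14.8% lower). The rises numbered 8 without fbf-1 3xlnc library 3 and 7 with all 15 libraries in 1 fit. Besides sdc-3, xol-1, fog-3, fem-3 and fog-1 the 13 included tra-3, a calpain protease that promotes female fate. The gene tra-3 (chromosome IV, 14436445 to 14444183) had 93.2, 94.4 and 92.4 CPM in fbf-1 3xlnc and 52.1, 60.0 and 55.3 CPM in 3xlnc, while fbf-1 (69.6, 72.8 and 64.0 CPM) and WT (66.7, 69.8 and 68.4 CPM) overlapped. Its log2 fold change of 0.82 (SE 0.0516, adjusted p = 2.4e-05) therefore had no counterpart in fbf-1 over WT (0.04), and the difference of 0.80 passed (adjusted p = 0.000423). The terminal regulator tra-1 was at -0.12 and did not pass. Members that promote male fate (fem-3, fog-1, fog-3, xol-1) and female fate (tra-3, sdc-3) are among the rises.

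Oocyte transcripts rose together. Of 28 genes of oocyte maturation, egg activation and eggshell, 27 rose and 0 fell, at a median of 0.32 (all genes: 17.4% higher, 14.8% lower). The gene egg-6, listed here by its name although it is best known for an extracellular leucine-rich repeat protein of epithelial tubes, had 514, 546 and 550 CPM in fbf-1 3xlnc and 351, 371 and 352 CPM in 3xlnc (log2 0.66, SE 0.0551, adjusted p = 9.79e-05). Defining oocyte markers rose as well: the maturation gene oma-1 by 0.29, the eggshell gene cbd-1 by 0.38 and the yolk receptor gene rme-2 by 0.47 on the log2 scale. Summed over the list, fbf-1 3xlnc held 19320 to 20950 CPM and 3xlnc 16300 to 17460 CPM, without overlap, whereas fbf-1 (21000 to 22310 CPM) lay just above WT (17530 to 20920 CPM). In these bulk samples fewer cells of a type and less RNA per cell cannot be told apart. The count was 17 without fbf-1 3xlnc library 3 and 16 with all 15 libraries in 1 fit, and the difference from fbf-1 over WT passed for 1 of the 28, or for 16 without WT library 1. Among 25 P granule and small RNA genes, 18 rose and 0 fell at a median of 0.23, led by the Argonaute gene ergo-1 (0.42, adjusted p = 0.00144), the helicase gene glh-2 (0.34) and the granule assembly gene meg-3 (0.38). This count was 10 without fbf-1 3xlnc library 3 and 6 with all 15 libraries in 1 fit. Without fbf-1 3xlnc library 1, 20 of the P granule and small RNA genes rose and 2 fell. In fbf-1 over WT 0 genes of these 2 lists passed with edgeR, where 5 oocyte and 1 P granule genes were higher at an unadjusted p under 0.05, and 2 oocyte genes with DESeq2. Without WT library 1, 3 oocyte genes rose and 1 fell there, 0 P granule genes rose and 5 fell, and the difference between the backgrounds passed as higher for 10 of the 25 P granule genes. For fbf-1 3xlnc over 3xlnc, the lists named so far with 0 falls also had 0 at an unadjusted p under 0.05 and with DESeq2 and limma-voom.

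Early zygotic genes, which are switched on in young embryos and so report on embryos held in the adult, had the highest median of the germline and embryo lists, 0.69, with 14 of 36 higher and 2 lower. The gene vet-6 had 28.2, 32.1 and 29.2 CPM in fbf-1 3xlnc and 12.6, 16.3 and 12.8 CPM in 3xlnc, against 23.7, 26.3 and 23.5 CPM in fbf-1 and 22.2, 18.7 and 22.1 CPM in WT. The 3xlnc libraries were the low ones of these 4 groups, and the fbf-2 libraries were as low (12.5, 14.0 and 12.9 CPM). Its log2 fold change was 1.18 (adjusted p = 0.000175) and the difference from fbf-1 over WT 0.94 (adjusted p = 0.0023). The genes vet-1 (log2 0.90) and vet-2 (0.77) behaved alike, with differences of 0.97 and 0.65 that passed, and 5 of the 36 differences passed as higher and 1 as lower. Without fbf-1 3xlnc library 3 the count of rises was 8.

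**Figure D3:**
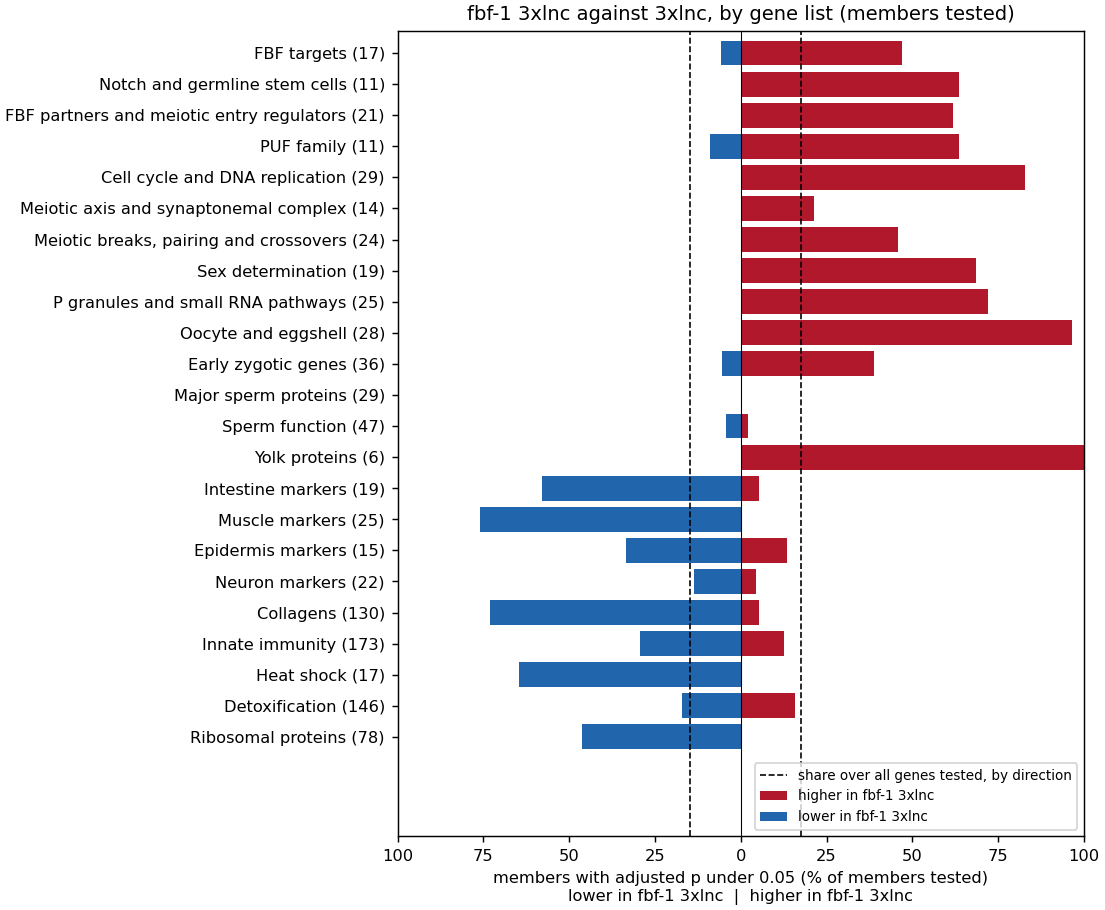
Share of the tested members of 23 gene lists with an adjusted p under 0.05 in fbf-1 3xlnc over 3xlnc (horizontal axis, percent of members tested), higher to the right in red and lower to the left in blue, with the number tested in brackets and dashed lines at the shares over all genes, 17.4% higher and 14.8% lower. Oocyte (27 of 28) and cell cycle (24 of 29) genes lie to the right, and collagen (95 of 130) and muscle (19 of 25) genes to the left.

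Sperm transcripts turned on a single library. Major sperm proteins, the cytoskeletal and signalling proteins of nematode sperm, summed to 586.5, 248.8 and 259.2 CPM in fbf-1 3xlnc libraries 1, 2 and 3 and to 600.4, 430.2 and 518.9 CPM in 3xlnc. Libraries 2 and 3 were below all 3xlnc libraries and library 1 was among them. With all libraries 0 of 29 genes passed in either direction with edgeR, also at an unadjusted p under 0.05, or with DESeq2, although all 29 log2 fold changes were below 0 (median -0.43), and without library 1 28 of 29 fell (median -0.95). With no filter on low counts 9 of 34 fell. A replicate block by title number called 17 of the 29 and 18 of 47 sperm function genes lower, and by library name 0 and 4. The gene msp-51 shows it, with 21.6, 8.39 and 10.2 CPM in fbf-1 3xlnc and 22.5, 19.8 and 21.5 CPM in 3xlnc (log2 -0.60, adjusted p = 0.139). Genes of sperm function followed: 1 of 47 rose and 2 fell at a median of -0.44, and without library 1 2 rose and 36 fell (median -0.98), and with no filter on low counts 15 of 58 fell. In fbf-1 over WT, 5 of 27 major sperm protein genes and 4 of 40 sperm function genes fell. The falls numbered 25 and 16 at an unadjusted p under 0.05 and 15 and 10 with DESeq2, with 0 rises in each case. Major sperm proteins summed to 110.3 to 183.7 CPM in fbf-1 and 225.5 to 337.5 CPM in WT. Without WT library 1, 15 of 27 and 9 of 43 fell. Of the 29 differences between the backgrounds 0 passed with edgeR (1 at an unadjusted p under 0.05) or with DESeq2. Major sperm protein genes are near-copies, so single values are uncertain.

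Most cuticle collagen genes tested fell, against 14.8% of all genes. Of 130 collagen genes tested, 95 fell and 7 rose, at a median log2 fold change of -1.70, and without fbf-1 3xlnc library 1 110 of 133 fell at a median of -2.28, while without 3xlnc library 3 62 of 132 fell. Relative to the WT mean, the median collagen gene stood at 0.12, -0.99 and -0.87 on the log2 scale in fbf-1 3xlnc libraries 1, 2 and 3 and at 1.21, 1.01 and 1.25 in 3xlnc, while fbf-1 (-0.23, -0.02 and -0.17) and WT (0.12, 0.16 and -0.23) lay together. The 3xlnc libraries were high and the fbf-1 3xlnc libraries 2 and 3 low against WT. Of 126 tested in fbf-1 over WT 17 fell and 4 rose (median -0.14), and without WT library 1 31 of 129 fell and 18 rose. The difference between the backgrounds passed for 43 of 134 genes, 40 of them lower, and the lower calls ran from 16 without fbf-1 library 2 to 73 without fbf-1 3xlnc library 1. The gene col-91 had 2.48, 0.246 and 0.232 CPM in fbf-1 3xlnc and 17.6, 9.67 and 20.7 CPM in 3xlnc (log2 -3.95, SE 0.635, adjusted p = 0.00206), and col-137 fell by 4.19 (adjusted p = 0.00375). The gene col-118 fell by 1.04 (adjusted p = 0.000455).

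The few collagens that rose were expressed at very different levels. The gene col-101 had 1582, 1659 and 1654 CPM in fbf-1 3xlnc and 1024, 1102 and 1058 CPM in 3xlnc (log2 0.70, adjusted p = 9.79e-05). The gene col-158 had 6.12, 11 and 10.2 CPM in fbf-1 3xlnc and 1.91, 2.06 and 1.52 CPM in 3xlnc (log2 2.40, adjusted p = 0.000289). Neither pair of groups overlapped, which was so for 44.8% of all genes tested. Summed over all collagens, where the abundant genes dominate, the level was 39460 to 45860 CPM in fbf-1 3xlnc and 54050 to 57090 CPM in 3xlnc.

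**Figure D4:**
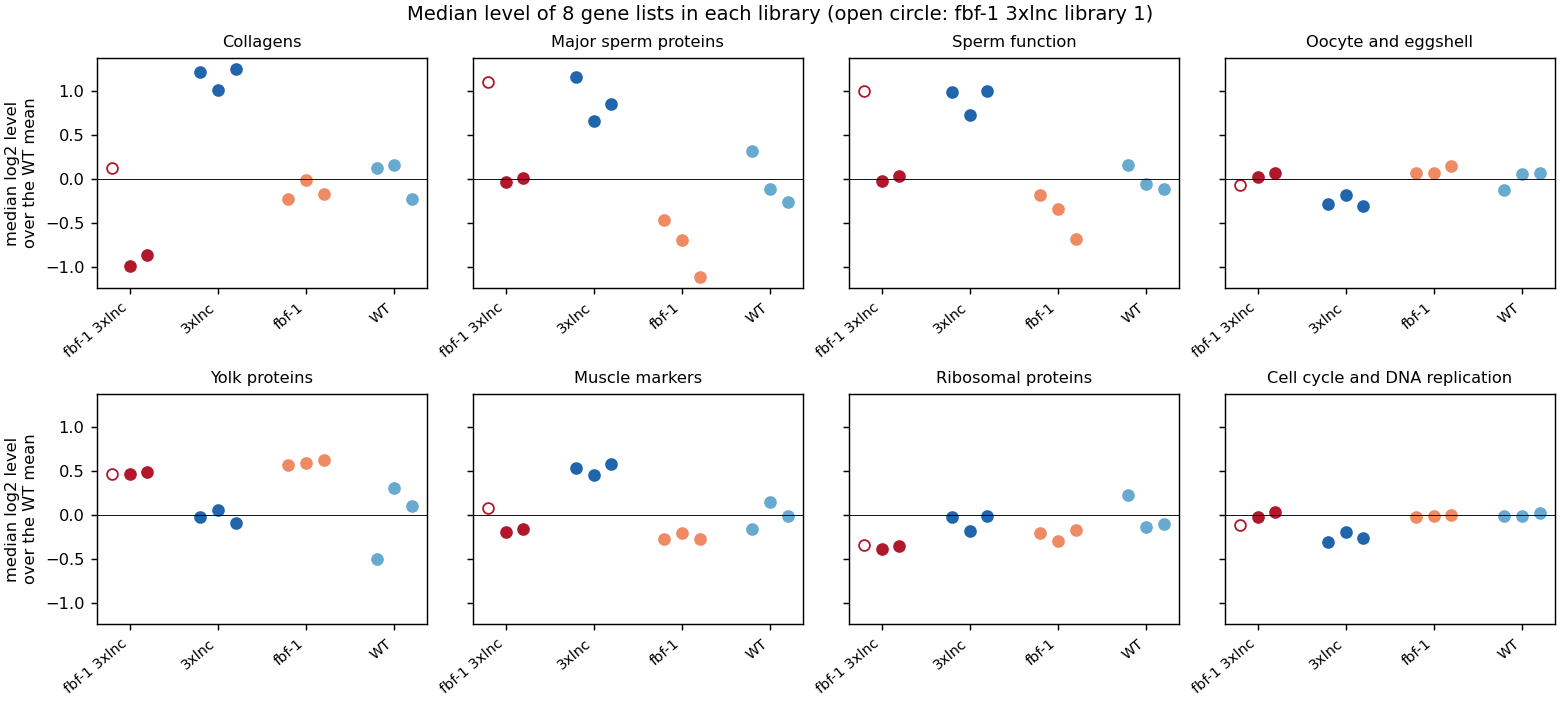
Median over the tested genes of 8 lists of the log2 level relative to the WT mean (vertical axes, shared) in each library of fbf-1 3xlnc, 3xlnc, fbf-1 and WT, with fbf-1 3xlnc library 1 as an open circle. Library 1 lies with 3xlnc for major sperm protein (1.10) and sperm function genes (0.99) and between the groups for collagens (0.12), and for oocyte and cell cycle genes the 3xlnc libraries are the low ones.

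Heat shock genes fell without a single rise. Of 17 tested, 11 fell (7 without fbf-1 3xlnc library 2) at a median of -0.42, beside 14.8% lower over all genes. All 17 values were below 0. The inducible chaperone gene hsp-70 (chromosome I, 9320325 to 9322519) had 0.455, 0.527 and 0.265 CPM in fbf-1 3xlnc and 38.8, 17 and 17.3 CPM in 3xlnc, against 2.49, 2.53 and 1.82 CPM in fbf-1 and 0.882, 0.678 and 1.10 CPM in WT. The 3xlnc libraries were far above the other 3 of these groups, but the fbf-2 libraries were high too (40.1, 26.8 and 48.3 CPM). The log2 fold change was -5.79 (SE 0.454, adjusted p = 7.71e-05), opposite to fbf-1 over WT (1.36, adjusted p = 0.0222). The small heat shock gene hsp-16.41 (chromosome V, 1805178 to 1805875) had 4 counts in fbf-1 3xlnc and 623 in 3xlnc, a ratio of CPM of 0.00502 (95% counting interval 0.00136 to 0.0129), while it rose in fbf-1 over WT (3.02 against 0.242 CPM, log2 3.74, adjusted p = 0.000897). Its neighbour hsp-16.2 had 6 and 639 counts, a ratio of 0.00734 (0.00268 to 0.0161), and rose in fbf-1 over WT by 3.13. Intervals cover counting error only, and the hsp-16 genes are near-copies. Mean levels in fbf-2 were 101 CPM for hsp-16.41 and 83.6 CPM for hsp-16.2, above the 9.96 and 10.3 CPM of 3xlnc. The differences between the backgrounds passed for all 3, at -7.13, -10.16 and -11.25 for hsp-70, hsp-16.2 and hsp-16.41. Of the constitutive chaperones, hsp-3 and hsp-4 of the endoplasmic reticulum fell (log2 -0.42 and -0.39), while hsp-1, the cytosolic relative of hsp-70, at -0.15 and hsp-90 at -0.11 did not pass. The 17 genes had 0 rises also at an unadjusted p under 0.05 and with DESeq2 and limma-voom.

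A pattern of high 3xlnc levels also marked the nspe genes, a nematode-specific peptide family clustered on chromosome II (12619173 to 12627570 for the 3 named here). The gene nspe-1 had 0.63, 1.58 and 1.96 CPM in fbf-1 3xlnc and 33.4, 20.1 and 27.5 CPM in 3xlnc, against 5.66, 5.80 and 6.74 CPM in fbf-1 and 12.6, 3.15 and 7.03 CPM in WT. The fbf-1 3xlnc libraries were the lowest and the 3xlnc libraries the highest of the 4 groups. High levels were not particular to 3xlnc. For nspe-1, nspe-2 and nspe-7 the fbf-2 means were 36.7, 10.1 and 24.3 CPM, above 27.0, 8.69 and 6.42 CPM in 3xlnc. The log2 fold changes were -4.19 for nspe-1, -5.21 for nspe-2 and -5.01 for nspe-7 (adjusted p = 7.31e-05, 9.7e-06 and 5.12e-05), against -0.18, -0.63 and -0.04 in fbf-1 over WT, with differences of -4.0, -4.57 and -4.96 that all passed. The unnamed genes C42D4.3 (log2 -4.04) and R12E2.7 (-3.70) fell likewise.

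Yolk protein genes rose together. All 6 vitellogenin genes, which the intestine expresses for uptake by oocytes, rose, at a median of 0.57. Their sum was 109800, 110000 and 111300 CPM in fbf-1 3xlnc and 78480, 82020 and 74770 CPM in 3xlnc, without overlap. The gene vit-2 had 28620, 28850 and 29080 CPM in fbf-1 3xlnc and 20350, 20790 and 18950 CPM in 3xlnc (log2 0.60, SE 0.095, adjusted p = 0.0019), and vit-5 rose by 0.66. The median in fbf-1 over WT was similar, 0.61 (sums of 119000 to 126500 CPM in fbf-1 and 54970 to 97150 CPM in WT), but 0 of 6 passed there with edgeR, 3 at an unadjusted p under 0.05 and 3 with DESeq2, and without WT library 1 the median was 0.38 with 2 genes higher.

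Markers of muscle and intestine fell in larger share than the 14.8% of all genes. Of 25 muscle genes, 19 fell and 0 rose (1 at an unadjusted p under 0.05) at a median of -0.45. The troponin gene tni-3 had 67.2, 57.1 and 61.5 CPM in fbf-1 3xlnc and 115, 113 and 111 CPM in 3xlnc (log2 -0.79, SE 0.0617, adjusted p = 7.71e-05), and the pharyngeal troponin gene tni-4 fell by 0.88. The muscle sum was 11320 to 13880 CPM in fbf-1 3xlnc and 16590 to 17850 CPM in 3xlnc, against 10580 to 10810 CPM in fbf-1 and 10470 to 13350 CPM in WT, so the 3xlnc libraries were above the other 3 groups. In fbf-1 over WT 2 of 25 fell, and 16 did without WT library 1. Of 19 intestine markers, 11 fell and 1 rose at a median of -0.30, among them the intermediate filament genes ifb-2 (-0.77) and ifc-2 (-0.72), which fell in fbf-1 over WT as well (-0.73 and -0.55), and the cathepsin gene cpr-1 (-1.13). Epidermis markers were 2 higher and 5 lower of 15, and neuron markers 1 higher and 3 lower of 22, a share below that of all genes. Somatic gonad markers were 2 higher and 2 lower of 16 at a median of -0.00, shares below those of all genes. The troponin T gene tnt-4, placed in this list, had 26.7, 18.1 and 19.2 CPM in fbf-1 3xlnc and 56.5, 53.5 and 57.9 CPM in 3xlnc (log2 -1.32, adjusted p = 0.000185). Troponins are muscle proteins, so this fall may not be one of the gonad. Muscle and intestine markers thus mostly fell while the oocyte and cell cycle lists mostly rose. The sperm lists had medians of -0.43 and -0.44, and the yolk protein genes of the intestine rose. The part of tissue proportions in the single changes was not tested.

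Cytosolic ribosomal protein genes fell slightly, 36 of 78 with 0 rises (0 also at an unadjusted p under 0.05 and with DESeq2) at a median of -0.21. All 78 values were below 0, and the count ran from 10 without fbf-1 3xlnc library 2 to 75 without 3xlnc library 2. The gene rpl-30 had 497, 474 and 491 CPM in fbf-1 3xlnc and 637, 621 and 625 CPM in 3xlnc (log2 -0.29, adjusted p = 0.0035), and the paralogue rpl-11.2 fell by 0.63 (adjusted p = 0.00106). In fbf-1 over WT the median was -0.18, with 0 of 77 past the test in edgeR, 10 lower at an unadjusted p under 0.05 and 6 lower in DESeq2, and without WT library 1 10 of 77 fell in edgeR. Core histone genes, whose mRNAs mostly lack a polyA tail, were 3 higher and 5 lower of 24 at a median of 0.12. Of 15 ribosomal and other short RNA genes tested, 3 were higher and 1 lower at a median of 0.50. Over all genes 17.4% were higher and 14.8% lower, so these small counts do not set the histone or short RNA genes apart. Of 14 mitochondrially encoded genes 0 were higher (1 at an unadjusted p under 0.05, 0 with DESeq2) and 1 was lower, at a median of 0.09. For these genes too the RNA label and the genotype cannot be told apart.

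Defence and detoxification genes moved both ways. Of 173 innate immunity genes 22 rose and 51 fell at a median of -0.24, and the rises were 14 and 13 without fbf-1 3xlnc library 2 and library 3. The share of rises was below the 17.4% of all genes, and only that of falls was above the 14.8% of all genes. The C-type lectin gene clec-5 had 5.14, 6.0 and 6.80 CPM in fbf-1 3xlnc and 23.2, 18 and 21 CPM in 3xlnc (log2 -1.72, adjusted p = 9.79e-05), and the difference from fbf-1 over WT passed (-1.48, adjusted p = 0.0019). The lectin gene clec-48 fell by 0.91 and dod-6 by 0.68. Of 146 detoxification genes 23 rose and 25 fell, shares close to the 17.4% and 14.8% of all genes. The cytochrome P450 gene cyp-13A2 had 18.5, 17.6 and 19.1 CPM in fbf-1 3xlnc and 7.22, 6.93 and 8.34 CPM in 3xlnc (log2 1.37, adjusted p = 4.98e-05), and cyp-25A3 rose by 1.44. Both had 3xlnc libraries below WT and differences that passed (1.48 and 1.22). The gene cyp-14A5 rose in both backgrounds, by 0.93 and 0.73 (adjusted p = 9.79e-05 and 0.0114), with a difference of 0.22 that did not pass.

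Cell death genes showed 9 rises and 1 fall of 14 at a median of 0.22 (all genes: 17.4% higher, 14.8% lower). The caspase gene ced-3 rose by 0.36 and the engulfment gene ced-5 by 0.39, and the nuclease gene nuc-1 fell by 0.39 (adjusted p = 0.00285, 0.000984 and 0.000741). The rises numbered 11 without fbf-1 3xlnc library 1, 4 without its library 2 or 3 or 3xlnc library 1, and 5 without 3xlnc library 3. Of 32 other long intervening RNA genes that passed the filter, 2 rose and 9 fell at a median of -0.21, and 3 fell without fbf-1 3xlnc library 2 or with DESeq2. Genes on the X chromosome, which the germline largely silences, were 262 higher and 398 lower of 2032 at a median of -0.08, shares of the same order as those of all genes (164 and 252 without fbf-1 3xlnc library 2, 146 and 298 without library 3).

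The authors' deposited table flags genes as germline-enriched and as bound by FBF-2. Of 1847 tested genes flagged as FBF-2-bound, 792 rose and 155 fell at a median of 0.14. Of 2781 flagged as germline-enriched, 844 rose and 107 fell at a median of 0.08. Over all genes 17.4% rose and 14.8% fell. Genes with both flags were 407 higher and 18 lower of 742 (median 0.19), and genes with neither were 1279 higher and 1898 lower of 10543 (median -0.07). The FBF-2-bound genes in fbf-1 over WT were 8 higher and 12 lower of 1848, and without WT library 1 100 higher and 174 lower. The median shifts are small. A test against a fold of 1.5 called 3 FBF-2-bound genes higher and 7 lower, which is not a count of all genes with a fold above 1.5. The counts depend on the libraries and the scaling: FBF-2-bound rises numbered 494 without fbf-1 3xlnc library 2, 384 without library 3 and 603 with upper-quartile scaling. Germline-enriched rises numbered 501 and 367 without the same libraries and 559 without 3xlnc library 3, and germline-enriched falls numbered 619 without fbf-1 3xlnc library 1.

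The largest rises beyond those above were of genes with modest levels. The ammonium transporter gene amt-1 (chromosome X, 4571437 to 4573914) had 16.2, 12.6 and 14.0 CPM in fbf-1 3xlnc and 1.85, 2.65 and 2.73 CPM in 3xlnc, against 1.91, 1.52 and 1.92 CPM in fbf-1 and 2.87, 5.32 and 3.77 CPM in WT. It was high in fbf-1 3xlnc only among these 4 groups (log2 2.62, SE 0.151, adjusted p = 1.45e-05), and the difference from fbf-1 over WT was 3.81 (adjusted p = 1.12e-05). The SWEET-family sugar transporter gene swt-6 followed the same pattern (log2 1.85, adjusted p = 2.69e-05), with 13.1, 15.1 and 16.1 CPM in fbf-1 3xlnc and 3.98 to 4.64 CPM in 3xlnc. F12A10.1 (log2 2.66), F15E6.3 (2.39), F41C3.2 (2.11), C46G7.5 (2.06), ora-1 (1.89) and drd-10 (1.84) complete the 12 largest rises. C46G7.5 had 3.15, 3.16 and 3.32 CPM in fbf-1 3xlnc and 0.866, 0.753 and 0.818 CPM in 3xlnc, but 3.29 to 4.05 CPM in fbf-1 and 3.31 to 5.07 CPM in WT, so here 3xlnc was the group that stood apart.

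The differences with the smallest adjusted p included genes for which the linc-mutant groups were close to each other. The ABC transporter gene haf-6 (chromosome I, 1162880 to 1175809) had 37.8, 36.5 and 36.8 CPM in fbf-1 3xlnc and 42.5, 42.9 and 44.8 CPM in 3xlnc (log2 -0.15, adjusted p = 0.0516), against 6.04, 5.15 and 5.28 CPM in fbf-1 and 34.5, 37.9 and 39.7 CPM in WT (log2 -2.74, adjusted p = 2.01e-05). Only the fbf-1 libraries were low among these 12, and the difference was 2.61 (adjusted p = 1.32e-07). The acyltransferase gene oac-59 (difference 2.98) and C24B5.4 (3.33) had the same shape, with 12.1 to 14.1 CPM in fbf-1 3xlnc, 12 to 15.4 CPM in 3xlnc, 1.27 to 1.84 CPM in fbf-1 and 10.3 to 12.6 CPM in WT for oac-59. Low WT levels set apart ule-1, a uterine lumen protein gene, with 179, 202 and 207 CPM in fbf-1 3xlnc, 139, 151 and 144 CPM in 3xlnc, 240, 226 and 243 CPM in fbf-1 and 35.1, 30.1 and 28.1 CPM in WT. It rose in both backgrounds, by 0.52 (adjusted p = 0.000668) and by 2.97 (adjusted p = 4.33e-06), with a difference of -2.43 (adjusted p = 1.32e-07).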

How the data were processed

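Libraries of whole adult worms were aligned with STAR 2.7.9a and counted with featureCounts (Subread 2.0.1) on WBcel235, per the submitters' processing notes, which also name DESeq2 1.34.0. Strand and multiple-match settings and the annotation release: not given in the sources used here. The deposited tables hold raw counts per gene for 46904 genes, and the values used are these counts as the authors' counting gave them; 18 columns of other per-sample values and the authors' own fold changes were not used. The authors' deposited flags of each gene (germline-enriched, FBF-2-bound) were used without a stated definition. Positions come from the WBcel235 annotation, release 115 (46817 genes found).

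Columns were matched to samples by name; those of fbf-1 3xlnc could be matched to the group only, so their numbers only tell libraries apart. In R 4.3.3, edgeR 4.0.16 (filterByExpr, TMM, glmQLFit, glmQLFTest, Benjamini-Hochberg over all genes tested, adjusted p under 0.05) was fitted to 6 libraries per comparison and to 12 for the difference, without a batch term, which the design does not allow, and without a replicate block. Every adjusted p in the text is from edgeR unless DESeq2 (1.42.0) or limma-voom (limma 3.58.1) is named. The code was tested on simulated data. No 2 libraries were as close as counting noise alone allows (chi-square over its degrees of freedom at least 5.83). CPM are counts per 1000000 counts of a library; intervals cover counting error at 95%.

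Alternatives were other scalings, count filters and tests, all 15 libraries in 1 fit, leaving out each library and the replicate block. Named by rule were the targeted genes, the 12 top rises and 12 top falls among genes with a mean of 50 counts and separate groups, all FBF target and Notch list members, the 3 smallest adjusted p of each other list, and 6 genes per direction of the difference. Other genes, including those changed in both backgrounds, neighbours and further list members, were named after their values were seen. The members and lists were chosen with earlier results of these data known. Lists are described by counts and medians beside all genes, with no test of the list. Sequences are not used here.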

Additional observations from a re-analysis of the deposited data

Results flagged for a closer look

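The effect of fbf-1 differed between the backgrounds, by the test of the difference itself (edgeR quasi-likelihood, adjusted p under 0.05), for 41 of the genes named by rule. Values are the log2 fold change of fbf-1 3xlnc over 3xlnc minus that of fbf-1 over WT, and no explanation is weighed.

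The effect was higher in the linc-mutant background for amt-1 (3.81), C24B5.4 (3.33), oac-59 (2.98), haf-6 (2.61), asp-17 (2.19), C46G7.5 (2.17), F12A10.1 (1.70), fkb-5 (1.66), cyp-13A2 (1.48), swt-6 (1.48), col-158 (1.43), F41C3.2 (1.41) and cyp-25A3 (1.22). Smaller positive differences were those of the embryonic genes vet-1 (0.97), vet-6 (0.94) and vet-2 (0.65), and of tra-3 (0.80), cpb-3 (0.56), sys-1 (0.53) and rad-54.L (0.41).

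The effect was lower for the chaperone genes hsp-70 (-7.13), hsp-16.2 (-10.16) and hsp-16.41 (-11.25), for nspe-7 (-4.96), nspe-2 (-4.57) and nspe-1 (-4.0), and for Y48G1BL.5 (-4.91). It was lower also for col-137 (-3.83), C42D4.3 (-3.75), col-91 (-3.57), R12E2.7 (-3.32), fog-3 (-2.81), T22B7.7 (-2.80), fbxa-192 (-2.58), ule-1 (-2.43) and anmt-3 (-2.29). Smaller negative differences were those of clec-5 (-1.48), cpr-1 (-0.86), clec-48 (-0.76), his-35 (-0.64) and tni-3 (-0.57).

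Of the 41, 33 passed without any single library, and 8 did not pass without some library: cpb-3, rad-54.L, sys-1, his-35, col-137, col-91, cpr-1 and F41C3.2. The gene T22B7.7 had 179, 106 and 106 CPM in fbf-1 3xlnc, with library 1 apart, and 167 to 199 CPM in 3xlnc, against 328 to 353 CPM in fbf-1 and 57.5 to 68.6 CPM in WT.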

How the results depend on the processing

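For fbf-1 3xlnc over 3xlnc (2508 genes higher, 2142 lower), a test against a fold of 1.5 gave 79 higher and 321 lower, and a fit of all 15 libraries 1413 higher. Upper-quartile scaling gave 1898 higher and 2556 lower. Leaving out single libraries gave 1183 to 3093 higher and 1344 to 3439 lower; the lowest and highest came without fbf-1 3xlnc library 3 (1183 higher), library 2 (1486 higher, 1344 lower) and library 1 (3093 higher, 3439 lower), and without 3xlnc library 3 1669 were higher. The cause was not tested. For fbf-1 over WT (284 higher, 361 lower), no count filter gave 453 and 599, DESeq2 444 and 565, a fold of 1.5 56 and 65, all 15 libraries 577 and 856, and single libraries left out 106 to 1006 and 87 to 1211, the highest without WT library 1. For the difference (375 higher, 541 lower), DESeq2 gave 583 higher and 715 lower, and single libraries left out 201 to 1570 and 339 to 1193, the highest again without WT library 1. With TMM-scaled library sizes fbf-1 was at 8.86 and fbf-2 at 34.2 CPM in fbf-1 3xlnc.

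Same-numbered libraries of fbf-1 3xlnc and 3xlnc deviated from their group means with correlations of 0.198, 0.211 and -0.0461 by title number and -0.15, 0.211 and 0.0739 by library name. With 3 libraries per group these values do not settle whether the numbers pair them. The replicate block gave 2468 higher and 2279 lower, or 2530 and 2052, in the 2 readings. By title number it also called 17 of 29 major sperm protein and 18 of 47 sperm function genes lower, and by library name 0 and 4.

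Of 105 genes named by rule that changed in fbf-1 3xlnc over 3xlnc, 91 kept their call without any single library. The other 14 did not pass without some library: him-3, ego-1, epn-1, lin-12, lst-1, coh-3, ssp-33, spe-39, nspd-7, eat-4, mec-7, mec-12, inx-8 and sys-1. No named gene turned its direction under any alternative once called. Genes under about 1 CPM rest on few counts.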
